A study of Mus musculus with 25 samples.

Results

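Differentiating spermatogonia of the mouse testis were compared within each library by how much of their RNA came from genes of the late cell cycle. The cells were those the authors' annotation names Diff_SGs, 1997 of the 4528 cells in all. The 2 classes were chosen by the measured share of each cell's unique molecular identifiers (UMIs, counted tags that each stand for 1 captured mRNA molecule) that came from 20 genes. A cell with a share of at least 1.2% was called M-phase-high and a cell with at most 0.7% M-phase-low. This gave 459 high cells and 519 low cells, and the 1019 cells in between belonged to neither class. The 20 genes were Ccna2, Ccnb1, Ccnb2, Cdk1, Aurka, Aurkb, Bub1, Bub1b, Plk1, Cdc20, Top2a, Mki67, Cenpe, Cenpf, Kif11, Kif20a, Tpx2, Birc5, Nusap1 and Ube2c. Their values set the classes, so they are described without a test, and every comparison below is over other genes.

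The cells came from 3 single-cell RNA-seq libraries of germ cells sorted for a 4N DNA content, 2 from Ythdc2 knockout (KO) mice and 1 from wild-type (WT) mice, all at postnatal day 10. YTHDC2 is an RNA helicase carrying a YTH domain, and without it male germ cells fail to settle into meiosis. The KO libraries are called KO A and KO B here, because the deposited table does not say which KO sample is which. The titles carry the word embryo beside P10, and the age label was followed. Testis as the source comes from the extraction protocol in the labels. The labels refer the KO line to earlier work, and give a hybrid background of C57BL/6 and DBA/2 (B6D2F1) for the embryos in which the study's other mutant lines were made. The number of animals behind each library is not stated in the labels, so the variation between libraries may be technical. The limma p-values rest mostly on variation pooled over all genes, and less on how each gene varied over these libraries. Ythdc2 itself, from 3′ tags that may lie outside the altered part of the gene, had 50.9, 44.6 and 172 CPM (UMIs of a gene scaled to 1000000 UMIs in all) over all Diff_SGs cells of KO A, KO B and WT.

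A cell that divides by mitosis copies its DNA in S phase, checks it in G2 and separates the copies in M phase. Genes for the spindle, the kinetochores and the kinases that drive division are transcribed mainly in G2 and M, and genes for DNA replication mainly in late G1 and S. Differentiating spermatogonia divide several times by mitosis before they enter meiosis, and a 4N sort holds those that have finished copying their DNA, together with cells in meiotic prophase, which also carry 4N.

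KO A contributed 95 high and 179 low cells of 529, KO B 198 high and 197 low cells of 814, and WT 166 high and 143 low cells of 654. High cells therefore made up 17.96% of the cluster in KO A, 24.3% in KO B and 25.4% in WT. The high cells of KO A, KO B and WT summed to 1283914, 2939885 and 2555543 UMIs, against 1795841, 2544292 and 1946689 UMIs for the low cells. High cells were the deeper class in every library, with a median of 11163, 12998 and 14671 UMIs per cell in KO A, KO B and WT, against 8914, 10837 and 12462 UMIs in low cells. Their median share of mitochondrial UMIs was 7.75%, 5.46% and 5.23% in KO A, KO B and WT, against 10.8%, 7.82% and 6.15% in low cells. Depth and mitochondrial share moved with the class in each result below, and their part in it was not tested except where cells of matched or thinned depth are named. The authors' own phase column called all 459 high cells G2M. It called 34 of 179 low cells S in KO A, 35 of 197 in KO B and 48 of 143 in WT, and the rest of the low cells G2M. The authors' median G2M score was 0.3721, 0.3827 and 0.3903 in the high cells of KO A, KO B and WT. In the low cells it was 0.2123, 0.2155 and 0.2246. The genes behind that score were not checked against those that set the classes, so the phase calls may share genes with the rule. They are not counted as an independent check of the classes.

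**Figure D1:**
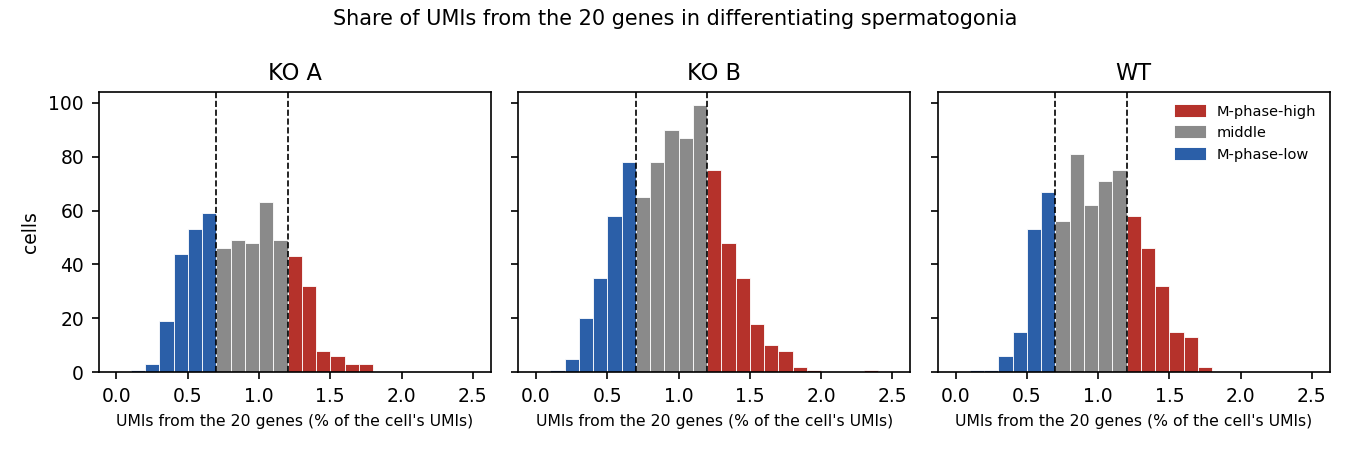
Number of Diff_SGs cells (y axis) by the share of the cell's UMIs that came from the 20 genes (x axis, percent, bins of 0.1) in KO A, KO B and WT, with dashed lines at 0.7% and 1.2%. The shares cover a broad range with no gap in each library, and both limits cut through well-filled bins.

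The classes are ranges of a continuous share and not separate populations. The median share over all cells of the cluster was 0.877% in KO A, 0.978% in KO B and 0.972% in WT. Within 0.05 percentage points of the upper limit lay 23, 42 and 34 cells just inside the high class in KO A, KO B and WT, with 21, 50 and 45 just outside it. Within the same distance of the lower limit lay 29, 43 and 35 cells just inside the low class, with 21, 31 and 24 just outside. The highest share among low cells was 0.6999% in WT, where the next cell above the limit had 0.7003%.

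The cluster's name was checked against marker genes. Dmrtb1, a transcription factor of late spermatogonia, had 289, 239 and 203 CPM in the Diff_SGs cells of KO A, KO B and WT, against 17.0, 12.8 and 28.5 CPM in the cells the authors call undifferentiated. Kit, the receptor that marks differentiating spermatogonia, had 103, 91.2 and 59.5 CPM, against 35.4, 26.5 and 49.5 CPM in the undifferentiated cells. Sohlh1, a transcription factor also listed as a marker of differentiating spermatogonia, went against this, with 107, 95.0 and 72.1 CPM, against 170.5, 176 and 136 CPM in the undifferentiated cells. Gfra1, a marker of undifferentiated spermatogonia, had 0 UMIs in the Diff_SGs cells of all 3 libraries. Sycp1 and Stra8, genes of meiotic entry, were present, at 766 to 1258 CPM for Sycp1 and 332.2 to 574 CPM for Stra8. The undifferentiated cells of KO A, KO B and WT held them too, at lower levels. Sycp1 had 351, 321 and 320 CPM there, and Stra8 289, 220 and 213 CPM. Dmrtb1, Kit and Gfra1 do not go against the name, while Sohlh1 does. The undifferentiated cells of KO A, KO B and WT also held Acta2, a myoid cell marker, at 743, 914 and 1752 CPM. In the Diff_SGs cells Acta2 had 0.33, 0.09 and 0.10 CPM. Whether RNA of other cells shifts the marker values of the undifferentiated cells was not tested. A few globin transcripts stood apart: red blood cell markers summed to 889 CPM in the middle cells of KO A, but to 0 to 1.58 CPM in the high and low classes used here.

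The 20 genes that set the classes were higher in high cells by construction, with folds of the mean CPM between 1.56 for Bub1 and 3.57 for Ube2c. Together they made up 13491, 13966 and 13876 CPM in the high cells of KO A, KO B and WT, against 5387, 5523 and 5819 CPM in the low cells. Ccnb1, the cyclin that activates Cdk1 at mitotic entry, had 658, 652 and 726 CPM in the high cells of KO A, KO B and WT, against 203, 202 and 187 CPM in the low cells. Cenpf, a large kinetochore protein, had 2578, 2761 and 2299 CPM in the high cells of KO A, KO B and WT, against 924, 926 and 834 CPM in the low cells. In the middle cells all 20 lay between the 2 classes in all 3 libraries.

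Outside the 20 genes, M-phase-high cells carried more RNA for the mitotic machinery and less for replication, nucleotide supply and histones than M-phase-low cells of the same library. Among 9281 genes with a mean of at least 5 CPM, 690 were higher and 811 lower in high cells. That is 7.43% and 8.74% of the genes tested, at an adjusted p under 0.05 with limma on log2(CPM + 1), with the library as a block (n = 3 libraries). CPM is a share of the class's UMIs, so a higher value does not by itself mean more molecules per cell beyond the difference in depth. The changes were mostly modest: 49 genes were at least 2-fold higher and 115 at least 2-fold lower on the log2 scale. All 3 libraries had the same sign for 1480 of the 1501 called genes. Without KO B the counts were 315 higher and 327 lower. In cells that the authors' phase column calls G2M, a restriction added after the data were seen, 543 genes were higher and 624 lower. Higher calls made up 46.0% of all calls here and 59.3% with TMM scaling, under which the log2 difference of the median gene was −0.00058, where it was −0.04 here.

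The 12 genes named as higher were led by Cep89, a centriole protein also needed for cilia. Cep89 had 139.7, 177 and 123 CPM in the high cells of KO A, KO B and WT, against 53.7, 38.7 and 35.1 CPM in the low cells. The ratio of its means was 3.44-fold (log2 difference 1.77, SE 0.11, limma adjusted p = 8.07e-15). Every high class exceeded every low class. Cdc25b, a phosphatase that activates Cdk1, had 90.0, 103 and 95.2 CPM in the high cells of KO A, KO B and WT, against 28.6, 24.1 and 31.5 CPM in the low cells. Its log2 difference was 1.75 (SE 0.12, limma adjusted p = 1.94e-13). Aspm, which works at spindle poles, had 458, 503 and 331.7 CPM in the high cells of KO A, KO B and WT, against 142, 153 and 93.5 CPM in the low cells. Its ratio of means was 3.33-fold (log2 difference 1.74, SE 0.07, limma adjusted p = 8.98e-20). In all 3 libraries the middle cells lay between high and low cells for these 3 genes.

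The promoters of these 3 genes are shown because the genes moved together and because 2 short promoter elements are linked to late cell cycle transcription. These are the cell cycle genes homology region (CHR, letters TTTGAA) and the CCAAT box (letters CCAAT). Both were searched on both strands in the windows of 250 bases before to 50 after the start of transcription, from RefSeq, build GRCm38.p6. Each sequence is the plus strand of the genome, which is also the gene's strand, 5′ to 3′, and capitals mark the matches, where ATTGG is CCAAT on the other strand and TTCGAA is a variant of the CHR. The Cep89 window lies at chr7:35396813-35397112, that of Cdc25b at chr2:131186698-131186997 and that of Aspm at chr1:139454523-139454822.
Cep89: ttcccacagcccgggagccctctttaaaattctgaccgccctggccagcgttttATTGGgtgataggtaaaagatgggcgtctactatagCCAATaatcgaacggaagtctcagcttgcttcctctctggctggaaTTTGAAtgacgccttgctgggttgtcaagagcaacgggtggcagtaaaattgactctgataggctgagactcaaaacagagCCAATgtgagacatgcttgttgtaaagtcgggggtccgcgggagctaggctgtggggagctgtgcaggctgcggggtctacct
Cdc25b: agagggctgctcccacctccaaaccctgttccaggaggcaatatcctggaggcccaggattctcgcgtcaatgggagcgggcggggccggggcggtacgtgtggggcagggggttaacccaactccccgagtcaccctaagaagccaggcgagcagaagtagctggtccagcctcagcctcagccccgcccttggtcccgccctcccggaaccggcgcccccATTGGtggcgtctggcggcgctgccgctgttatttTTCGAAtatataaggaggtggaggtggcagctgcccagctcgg
Aspm: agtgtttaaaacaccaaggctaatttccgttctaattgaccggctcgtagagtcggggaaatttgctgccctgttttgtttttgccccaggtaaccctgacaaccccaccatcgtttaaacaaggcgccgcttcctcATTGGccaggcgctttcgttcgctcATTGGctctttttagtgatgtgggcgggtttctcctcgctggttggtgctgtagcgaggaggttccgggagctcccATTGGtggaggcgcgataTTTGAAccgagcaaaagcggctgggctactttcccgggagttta

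Aspm held 1 TTTGAA and 3 CCAAT boxes, Cep89 also 1 TTTGAA and 3 CCAAT boxes, and Cdc25b 1 CCAAT box and 1 TTCGAA. Over all genes tested, 7399 of 9281 had a promoter in the RefSeq table, and TTTGAA stood in 11.1% of these. The share was 22.2% among the 545 higher genes with a promoter and 9.41% among 627 lower genes. Among 178 genes higher by at least 0.5 on the log2 scale, a limit chosen after values were seen, it was 38.2%. Over all 27025 promoters of the table, expressed or not, 18.1% held it. The CCAAT box was in 40.0% of the promoters of tested genes, 45.5% of those of higher genes and 44.8% of those of lower genes. With the same limit of 0.5 it was in 61.8% of those of higher genes and 45.7% of those of lower genes. Of the 20 genes of the rule, 16 had a promoter and 11 of these held TTTGAA. A match is a description of the letters in the window and shows no binding.

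Among the other named higher genes were regulators of Cdk1 and of the centrosome. Cdkn3, a phosphatase that acts on cyclin-dependent kinases, had 189, 185 and 183 CPM in the high cells of KO A, KO B and WT, against 57.1, 58.9 and 52.7 CPM in the low cells, a log2 difference of 1.71 (limma adjusted p = 3.00e-17). Nek2, a kinase that separates the centrosomes, had 228, 236 and 236 CPM in the high cells of KO A, KO B and WT, against 79.5, 69.2 and 72.3 CPM in the low cells. Cdc25c, a further phosphatase that activates Cdk1, had 74.2, 67.9 and 69.4 CPM in the high cells of KO A, KO B and WT, against 28.6, 19.4 and 19.1 CPM in the low cells. For these 3 genes every high class exceeded every low class. Troap, a spindle protein, Kif18b, a kinesin that shortens microtubules, Hmmr, a spindle assembly factor, Prr11, Ccnf, the F-box cyclin F, and Bub3 of the spindle checkpoint completed the 12. Their log2 differences were between 1.45 for Bub3 and 1.67 for Troap, with limma adjusted p from 6.48e-18 for Hmmr to 5.15e-09 for Troap. All 24 genes named for the largest differences, higher and lower, had classes that did not overlap over the libraries. They were picked as called genes with large differences of the same sign in all 3 libraries, so this largely follows from the choice. Of the 9281 genes, 8.45% did not overlap in the higher and 12.2% in the lower direction.

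**Figure D2:**
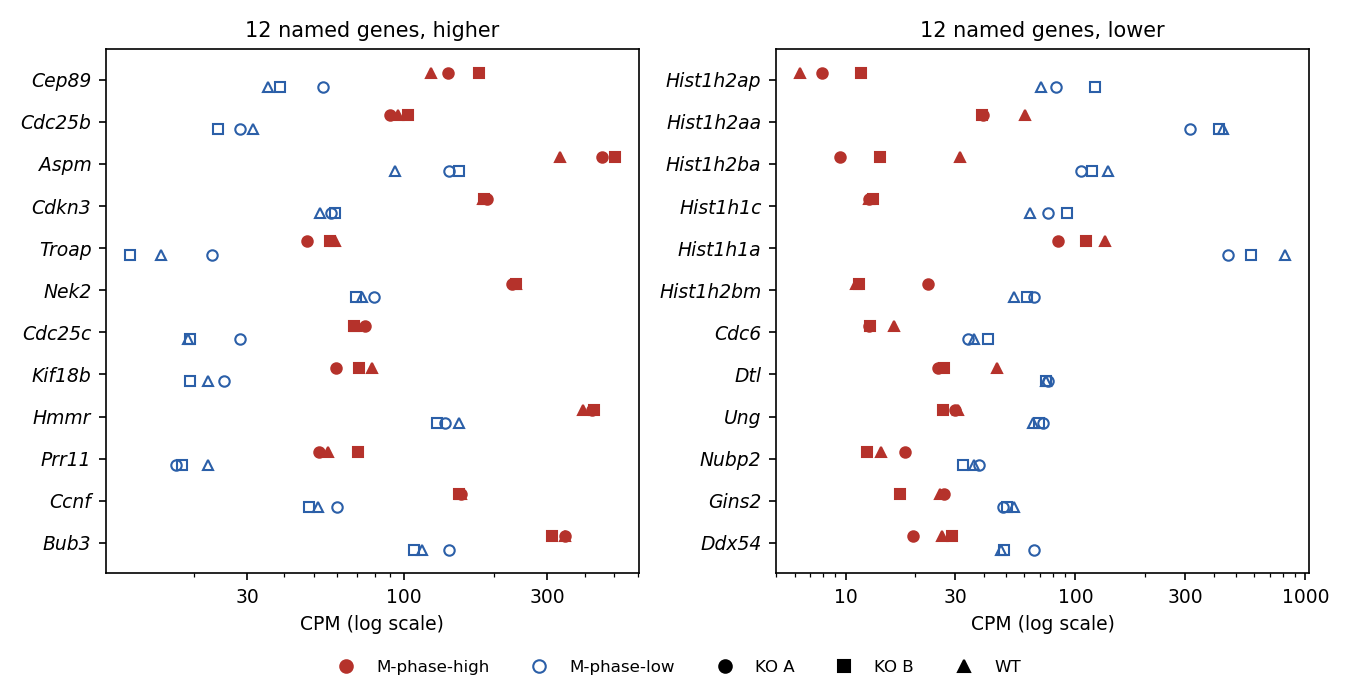
CPM (x axis, log scale) of the 12 named genes that were higher (left) and the 12 that were lower (right) in M-phase-high cells, with filled red symbols for high and open blue symbols for low cells, and symbol shapes for KO A, KO B and WT. In each row the red and blue symbols are separate, such as Cep89 at 123 to 177 CPM in high and 35.1 to 53.7 CPM in low cells.

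Nearly all genes for the spindle and the motors that move along it were higher in M-phase-high cells. Of 23 tested genes for spindle assembly and cytokinesis, 22 were higher and 0 lower, where 7.43% of all genes tested were higher and 8.74% lower, with a median log2 difference of 1.15, against −0.04 over all genes tested. Prc1, which bundles the central spindle, had 749.9, 795 and 758 CPM in the high cells of KO A, KO B and WT, against 285, 288 and 276 CPM in the low cells (log2 difference 1.44, limma adjusted p = 6.48e-18). Depdc1a had 26.8, 20.3 and 22.6 CPM in the high cells of KO A, KO B and WT, against 7.28, 7.90 and 5.68 CPM in the low cells. Cep55, which recruits the machinery of the final cut between daughter cells, differed by 1.25 and Ect2, which starts the cleavage furrow, by 0.92 on the log2 scale. Numa1, a spindle pole protein, was the single member that did not pass, at 98.7, 110.4 and 73.8 CPM in the high cells of KO A, KO B and WT, against 105, 94.8 and 75.4 CPM in the low cells. Of 11 mitotic kinesins 10 were higher, with a median log2 difference of 1.19. Kif18a, which aligns chromosomes, had 163, 215 and 207 CPM in the high cells of KO A, KO B and WT, against 76.1, 81.0 and 74.4 CPM in the low cells, a log2 difference of 1.31 (SE 0.09, limma adjusted p = 3.20e-14). Kifc1, a minus-end motor that focuses spindle poles, differed by 1.26. Kif2a, which takes microtubules apart, did not pass, at a log2 difference of -0.10.

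Genes of the kinetochore, where spindle fibres attach, were split. Of 31 tested, 12 were higher and 0 lower, with a median log2 difference of 0.20. Over all genes tested, 7.43% were higher and 8.74% lower. Cenpa, the histone H3 variant of centromeres, had 807, 777 and 936 CPM in the high cells of KO A, KO B and WT, against 354, 345 and 369 CPM in the low cells, a ratio of means of 2.36-fold (log2 difference 1.23, SE 0.07, limma adjusted p = 5.96e-16). Cenpc1, which binds Cenpa nucleosomes, differed by 1.10, and the outer kinetochore genes Ndc80 and Nuf2 by 0.68 and 0.74. Mis12 and Spc24, of the same structure, had log2 differences of 0.00 each and did not pass. Of 16 genes for the spindle checkpoint and sister separation 8 were higher and 0 lower. Sgo2a, a protector of centromeric cohesin, had 364, 384 and 394 CPM in the high cells of KO A, KO B and WT, against 161, 164 and 170.0 CPM in the low cells (a 2.31-fold ratio of means, limma adjusted p = 1.79e-15). Mad2l1, the checkpoint effector, differed by 0.48, and Pttg1, securin, by 0.05 without passing.

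**Figure D3:**
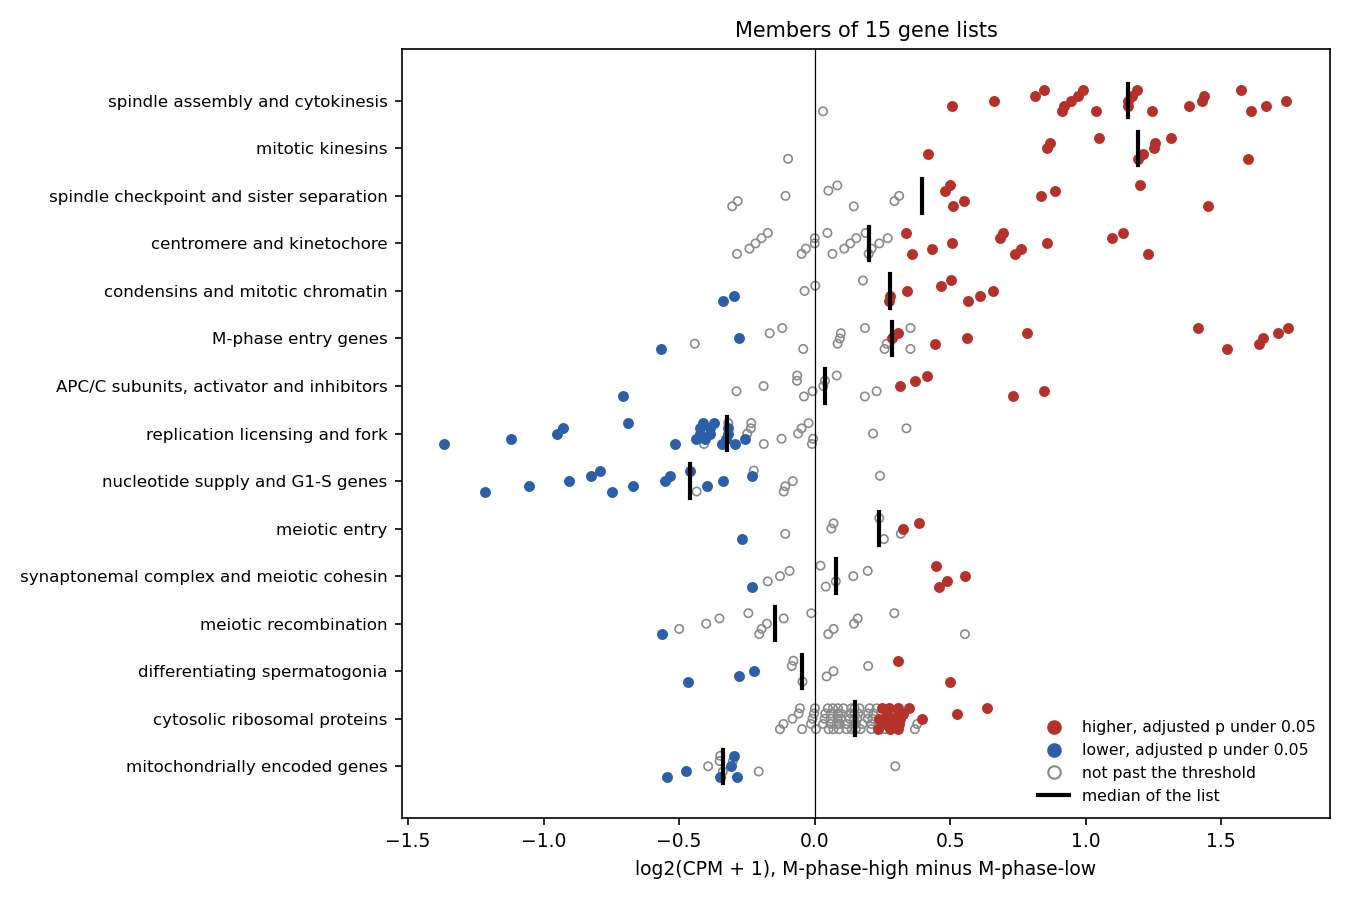
Log2(CPM + 1) difference, M-phase-high minus M-phase-low (x axis), of every tested member of 15 gene lists (rows), where filled red points are higher and filled blue points lower at a limma adjusted p under 0.05, open points did not pass and black bars are list medians. Spindle and kinesin genes lie mostly to the right of 0.5, while licensing and G1-S genes lie mostly left of 0.

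Of the called genes for chromosome compaction and mitotic entry most were higher, where 7.43% of all genes tested were higher and 8.74% lower. Among 13 condensin and mitotic chromatin genes 8 were higher and 2 lower. The condensin subunit Smc4 had 932, 1071 and 1131 CPM in the high cells of KO A, KO B and WT, against 544, 683 and 773 CPM in the low cells (log2 difference 0.66, limma adjusted p = 1.63e-08). The lower members were H2afx, at -0.34, and Ncaph2, at -0.30. H2afx had 178, 150.4 and 246 CPM in the high cells of KO A, KO B and WT, against 208, 245 and 262 CPM in the low cells, which overlap. Of 25 M-phase entry genes 11 were higher and 2 lower. Beside the named phosphatases, Wee1, the kinase that holds Cdk1 back, was higher at 0.28, and Foxm1, a transcription factor of G2 genes, had 68.7, 74.2 and 59.9 CPM in the high cells of KO A, KO B and WT, against 61.0, 62.8 and 53.7 CPM in the low cells and did not pass. The lower members were Mybl2, a transcription factor of the same gene program, at -0.57, and Arpp19, an inhibitor of the phosphatase PP2A, at -0.28.

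The anaphase-promoting complex is the ubiquitin ligase that ends mitosis. Over all genes tested, 7.43% were higher and 8.74% lower. Of 17 tested genes, listed for its subunits and for proteins that work with it, 5 were higher and 1 lower, with a median log2 difference of 0.04. Fzr1, its activator in late M and G1, had 194, 166 and 169 CPM in the high cells of KO A, KO B and WT, against 127, 88.1 and 83.2 CPM in the low cells (log2 difference 0.85, limma adjusted p = 2.15e-09). Ube2s, which extends the ubiquitin chains, had 1771, 1640.3 and 1807 CPM in the high cells of KO A, KO B and WT, against 997, 1000.3 and 1147 CPM in the low cells. Cdc26, a small subunit, was the lower gene of this list, with 18.2, 20.3 and 15.9 CPM in the high cells of KO A, KO B and WT, against 31.4, 34.4 and 25.3 CPM in the low cells.

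Replication genes ran the other way. Of 34 tested genes for origin licensing and the replication fork 20 were lower and 0 higher, with a median log2 difference of -0.32. Over all genes tested, 8.74% were lower and 7.43% higher. Cdc6, which loads the replicative helicase onto origins, had 12.6, 12.8 and 16.3 CPM in the high cells of KO A, KO B and WT, against 34.2, 41.5 and 36.2 CPM in the low cells. Its mean was 2.68-fold lower in high cells (log2 difference -1.37, SE 0.18, limma adjusted p = 8.83e-07), from 16 to 105 UMIs in each class and library. Gins2, a part of the active helicase, had 26.8, 17.2 and 25.8 CPM in the high cells of KO A, KO B and WT, against 48.1, 50.6 and 54.3 CPM in the low cells, and Pcna, the sliding clamp, had 53.7, 58.6 and 67.0 CPM in the high cells of KO A, KO B and WT, against 103, 126 and 119.9 CPM in the low cells. The helicase subunits Mcm2 to Mcm7 were all lower, from -0.52 for Mcm2 to -0.26 for Mcm3. Orc1, which marks origins, was at 0.34 and did not pass. Without KO B 12 of the 34 were lower, in cells thinned to 5000 UMIs 10 were, and in cells the authors call G2M 14 were. In these settings 327 of 9255, 178 of 9309 and 624 of 9276 genes tested were lower.

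The Cdc6 promoter, chosen for display after its values were seen, is shown beside the 3 promoters above as that of a gene that went the other way. It lies at chr11:98907901-98908200, on the plus strand, and capitals mark a match to 1 of 2 E2F sites searched on both strands, TTTCCCGC and TTTGGCGC. The match is to TTTCCCGC, here read on the other strand as GCGGGAAA.
Cdc6: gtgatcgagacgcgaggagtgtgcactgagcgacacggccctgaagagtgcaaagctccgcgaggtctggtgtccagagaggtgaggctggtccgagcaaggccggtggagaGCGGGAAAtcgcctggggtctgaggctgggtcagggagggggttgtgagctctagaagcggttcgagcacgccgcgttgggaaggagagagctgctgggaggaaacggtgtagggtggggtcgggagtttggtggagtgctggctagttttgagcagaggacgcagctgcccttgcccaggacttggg

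This window held no TTTGAA and no CCAAT box in these letters. Either E2F site stood in 3.80% of the promoters of tested genes, 6.86% of those of lower genes and 2.57% of those of higher genes. Among 324 lower genes with a promoter and a log2 difference of at least 0.5 in size it was 4.94%. Among 27 licensing and fork genes with a promoter 10 held 1 or both, and over all 27025 promoters 1.63% did. No test was run on these shares.

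Genes for nucleotide supply and the G1-S step were also lower. Of 19 tested 13 were lower and 0 higher, with a median log2 difference of -0.46. Ccne1, the cyclin of S phase entry, had 18.9, 17.9 and 16.7 CPM in the high cells of KO A, KO B and WT, against 44.8, 34.0 and 36.2 CPM in the low cells (log2 difference -1.05, SE 0.17, limma adjusted p = 2.35e-05). E2f1, a transcription factor of G1-S genes, had 24.5, 26.2 and 27.0 CPM in the high cells of KO A, KO B and WT, against 48.1, 52.96 and 47.0 CPM in the low cells. Tk1, an enzyme of thymidine nucleotide supply, differed by -0.82, and Ung, which removes uracil from DNA, by -1.22. Dtl, the adaptor of a ligase that destroys the licensing factor Cdt1, had 25.3, 26.9 and 45.6 CPM in the high cells of KO A, KO B and WT, against 76.1, 74.7 and 74.4 CPM in the low cells and belonged to the 12 named lower genes. Ccnd3, a cyclin of G1, had 13.4, 10.3 and 7.54 CPM in the high cells of KO A, KO B and WT, against 27.4, 25.3 and 21.2 CPM in the low cells. Among 12 D cyclins, inhibitors and RB family genes 2 were higher and 2 lower, where 7.43% of all genes tested were higher and 8.74% lower. The other lower member was Cdkn1a, the inhibitor p21, at -0.94, and the higher ones were Cdkn2c, an inhibitor of Cdk4 and Cdk6, at 0.60, and Rb1, the retinoblastoma protein, at 0.39.

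The largest negative differences were those of histone genes. Hist1h2ap had 7.89, 11.7 and 6.35 CPM in the high cells of KO A, KO B and WT, against 82.3, 122 and 70.8 CPM in the low cells, a 10.6-fold lower mean (log2 difference -3.26, SE 0.16, limma adjusted p = 1.04e-17). Hist1h2aa and Hist1h2ba, the testis-specific H2A and H2B, were also lower. Hist1h2aa had 39.5, 39.3 and 60.3 CPM in the high cells of KO A, KO B and WT, against 316, 422 and 437 CPM in the low cells (log2 difference -3.07), and Hist1h2ba had 9.47, 14.1 and 31.3 CPM in the high cells of KO A, KO B and WT, against 106, 118 and 138 CPM in the low cells (log2 difference -2.81). Hist1h1a, a linker histone, had 83.7, 111 and 134 CPM in the high cells of KO A, KO B and WT, against 463, 583 and 814 CPM in the low cells, a 5.66-fold lower mean (limma adjusted p = 8.93e-25). Hist1h1c and Hist1h2bm differed by -2.48 and -2.01.

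All 22 tested genes with a Hist symbol, a set chosen after values were seen, were lower. Over all genes tested, 8.74% were lower and 7.43% higher. The number called was 21 of 22 in cells the authors call G2M, 11 of 21 with limits of 1.4% and 0.5%, 15 of 22 without the library block, 16 of 22 with DESeq2 and 16 of 21 after thinning, and every one tested was below 0 in each of these settings. Summed over these genes the level was 226, 249 and 307 CPM in the high cells of KO A, KO B and WT, against 1357, 1650 and 1740 CPM in the low cells. The middle cells lay in between, at 516, 649.9 and 767 CPM. Many of these genes have near-identical copies, so how the counting split reads among them is uncertain, and most histone mRNAs of S phase carry no poly(A) tail, which limits their capture. Of the 9 tested histone genes with other symbols, mostly variants, 5 were lower, 1 was higher and 3 did not pass. The lower ones were H1f0, H1fx, H2afj, H2afx and H3f3b, with log2 differences of -1.02, -1.03, -1.004, -0.34 and -0.38. The higher one was H2afz, at 942, 841 and 1003 CPM in the high cells of KO A, KO B and WT, against 583, 656 and 784 CPM in the low cells (log2 difference 0.47).

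Genes of protein synthesis and energy supply had small median differences, which varied between libraries. Of 80 cytosolic ribosomal protein genes 20 were higher and 0 lower, with a median log2 difference of 0.15. Over all genes tested, 7.43% were higher and 8.74% lower. Within single libraries that median was 0.39 in KO A, 0.07 in KO B and −0.01 in WT. Summed, they made up 110929, 127829 and 121193 CPM in the high cells of KO A, KO B and WT, against 84939, 121178 and 122676 CPM in the low cells. Without KO A 7 were higher and 3 lower, and without KO B 4 were higher. Of all genes tested, 603 of 9191 were higher and 649 lower without KO A. Without KO B 315 of 9255 were higher. Rpl17 had 1565, 1942 and 1752 CPM in the high cells of KO A, KO B and WT, against 805, 1453 and 1524 CPM in the low cells.

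The 13 genes encoded by mitochondrial DNA had a median log2 difference of -0.34, with 6 lower and 0 higher. Summed, they made up 69335, 57551 and 57610.1 CPM in the high cells of KO A, KO B and WT, against 103542, 72228 and 66866 CPM in the low cells. They differed by −0.53 in KO A, −0.30 in KO B and −0.19 in WT at the median, and 1 was lower without KO B and 0 in cells of 8000 to 16000 UMIs. mt-Co1, a subunit of complex IV, had 12812, 10614 and 11918 CPM in the high cells of KO A, KO B and WT, against 21099.9, 14376 and 14372 CPM in the low cells (limma adjusted p = 0.0298), a call lost with TMM scaling. Of 78 nuclear genes of the respiratory chain 12 were higher and 6 lower, with a median of 0.07. Over all genes tested, 7.43% were higher and 8.74% lower. Ndufb11, of complex I, had 70.3, 74.8 and 63.5 CPM in the high cells of KO A, KO B and WT, against 38.1, 44.3 and 37.2 CPM in the low cells.

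**Figure D4:**
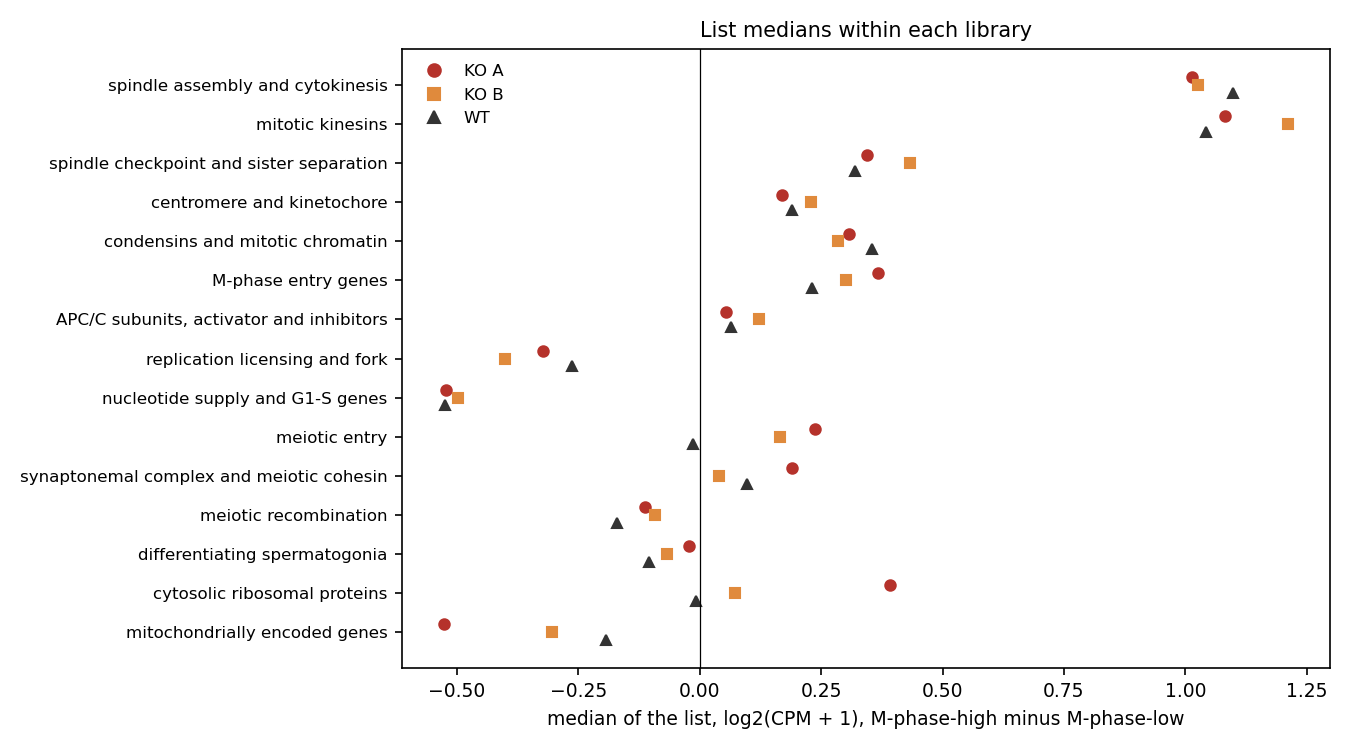
Median log2(CPM + 1) difference, M-phase-high minus M-phase-low (x axis), of the same 15 gene lists (rows) within KO A, KO B and WT. The 3 libraries lie close together for the mitotic and replication lists, and farthest apart for ribosomal protein genes (0.39, 0.07 and −0.01) and mitochondrially encoded genes.

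Some genes of meiosis were also higher in the M-phase-high cells. Meioc, the partner of YTHDC2 in meiotic entry, had 492, 479 and 589 CPM in the high cells of KO A, KO B and WT, against 305, 352 and 430.4 CPM in the low cells. Its log2 difference was 0.53 (SE 0.07, limma adjusted p = 1.16e-06), in the same direction in all 3 libraries, with no overlap between the classes. The fit without the library block called neither Meioc nor Sycp1, Sycp2, Sycp3, Hormad1 or Rec8. Sycp3 was also not called without KO B, with DESeq2 or in either depth setting. Rec8 also lost its call with DESeq2, after thinning, with limits of 1.4% and 0.5% and with a single limit of 0.95%. Sycp1 and Sycp2 also lost theirs when the first 10 genes of the rule set the classes, and kept them with the last 10. Sycp1, the transverse filament of the synaptonemal complex that pairs chromosomes, had 988, 1014 and 1382 CPM in the high cells of KO A, KO B and WT, against 643, 745 and 1115 CPM in the low cells (log2 difference 0.46, limma adjusted p = 3.68e-05). Each library's high class exceeded its own low class, while the WT low class exceeded both KO high classes.

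Of 13 tested synaptonemal complex and meiotic cohesin genes 4 were higher and 1 lower. The higher ones were Sycp1, Sycp2, Hormad1 and Tex11, with log2 differences of 0.46, 0.56, 0.49 and 0.45, and the lower one was Syce2, of the central element, at -0.23. Of 9 meiotic entry genes 2 were higher and 1 lower. Sycp3, of the chromosome axis, had 263, 351 and 309 CPM in the high cells of KO A, KO B and WT, against 208, 278 and 249.6 CPM in the low cells (log2 difference 0.33, limma adjusted p = 0.00128), and Rec8, the meiotic cohesin, differed by 0.39. Dmc1, the meiotic recombinase, was lower at -0.27 (limma adjusted p = 0.0488). That call was lost in most alternatives, among them TMM scaling, edgeR, DESeq2, no library block, each library left out and both depth settings. Among 16 recombination genes the single call was Ccdc36, lower at -0.56. Of all genes tested, 16.2% were called in either direction.

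The other genes of the YTHDC2 pathway did not pass. Ythdc2 had 40.3, 40.4 and 188 CPM in the high cells of KO A, KO B and WT, against 64.9, 49.4 and 167 CPM in the low cells, a log2 difference of -0.27 (limma adjusted p = 0.111). The class difference within libraries was -0.68 in KO A, -0.29 in KO B and 0.17 in WT. Rbm46, an RNA-binding partner, had 282, 247 and 264 CPM in the high cells of KO A, KO B and WT, against 321, 290.5 and 262 CPM in the low cells (limma adjusted p = 0.202). Xrn1, a 5′ to 3′ exonuclease that binds YTHDC2, had 111, 108 and 81.7 CPM in the high cells of KO A, KO B and WT, against 100.2, 86.6 and 66.7 CPM in the low cells (log2 difference 0.25, limma adjusted p = 0.0584). Gm4969 had 4.74, 8.28 and 26.2 CPM in the high cells of KO A, KO B and WT, against 5.60, 7.90 and 20.7 CPM in the low cells, from few UMIs, and Ccnb3, a B-type cyclin of meiosis, had 14.2, 16.9 and 51.2 CPM in the high cells of KO A, KO B and WT, against 17.9, 9.88 and 42.4 CPM in the low cells. For both, the 2 KO libraries lay below WT in either class, and the class difference did not pass.

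Markers of spermatogonial stage are given beside the 7.43% of all genes tested that were higher and the 8.74% that were lower. Of 11 tested markers of differentiating spermatogonia 2 were higher, Tex101 at 0.50 and Prss50 at 0.31, and 3 lower, among them Sohlh1, a transcription factor, at -0.47 and Dmrtb1 at -0.28. Kit had 103, 89.0 and 60.3 CPM in the high cells of KO A, KO B and WT, against 109, 98.4 and 60.5 CPM in the low cells and did not pass (limma adjusted p = 0.616). Of 3 tested markers of undifferentiated spermatogonia Sall4 was lower, with 7.89, 7.59 and 7.14 CPM in the high cells of KO A, KO B and WT, against 20.7, 18.6 and 10.9 CPM in the low cells. Of 8 genes for retinoic acid receptors and carriers 1 was lower, Rara at -0.57.

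Stra8 stood out as a gene whose class difference itself differed between the genotypes. Stra8, a retinoic acid target needed for meiotic entry, lies at chr6:34920163-34939344 (RefSeq, build GRCm38.p6). It had 617, 605 and 302 CPM in the high cells of KO A, KO B and WT, against 333, 475 and 418 CPM in the low cells. High cells exceeded low cells in both KO libraries, and in WT low cells exceeded high cells. The class difference was 0.89 in KO A, 0.35 in KO B and -0.47 in WT, and the middle cells lay between the classes in all 3. KO minus WT, this is 1.09 on the log2 scale (SE 0.17, limma adjusted p = 6.46e-05 for the interaction of class and genotype). Averaged over libraries the class difference of Stra8 was 0.26 and did not pass (limma adjusted p = 0.131). The interaction leaves 1 residual degree of freedom. Its SE and p-value therefore rest mostly on variance pooled over all genes, and little on how Stra8 varied between these libraries. With 1 WT library, genotype and library cannot be told apart. It was not called with limma after TMM scaling (adjusted p = 0.134), with edgeR (adjusted p = 0.259), with DESeq2 (adjusted p = 1.00), without the filter on low genes (adjusted p = 0.933) or without the library block (adjusted p = 0.999), though its value stayed between 0.65 and 1.72 in every fit run.

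Of 9281 genes, 2 (0.0215%) passed the interaction test, and 482 had an unadjusted p under 0.05. The second was Kcnq1ot1, a noncoding RNA antisense to Kcnq1, at chr7:143213111-143296547, with 128, 183 and 166 CPM in the high cells of KO A, KO B and WT, against 261, 256 and 158 CPM in the low cells. Its class difference was -1.03 in KO A, -0.48 in KO B and 0.07 in WT, or -0.83 KO minus WT (SE 0.17, limma adjusted p = 0.0455). The call was lost in 14 of 18 alternatives, TMM scaling, edgeR, DESeq2, both depth settings and every other class limit among them. Its value lay between −0.84 and −0.21 over these alternatives, with −0.21 at a single limit of 0.95%, and its adjusted p between 0.00123 and 1. Use of the strand in counting is not stated, so whether reads of Kcnq1ot1 and Kcnq1 were kept apart is not known from the sources used here. Next by p were AY036118, Rassf3 and Nsmce1, with limma adjusted p of 0.0569, 0.104 and 0.104, which did not pass. Rassf3 had 37.9, 43.8 and 14.7 CPM in the high cells of KO A, KO B and WT, against 24.1, 19.0 and 24.8 CPM in the low cells, and Nsmce1, of the Smc5-Smc6 complex, had 81.3, 82.8 and 52.4 CPM in the high cells of KO A, KO B and WT, against 56.0, 68.8 and 78.0 CPM in the low cells. For both, high cells exceeded low cells in the KO libraries and the order was turned round in WT.

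**Figure D5:**
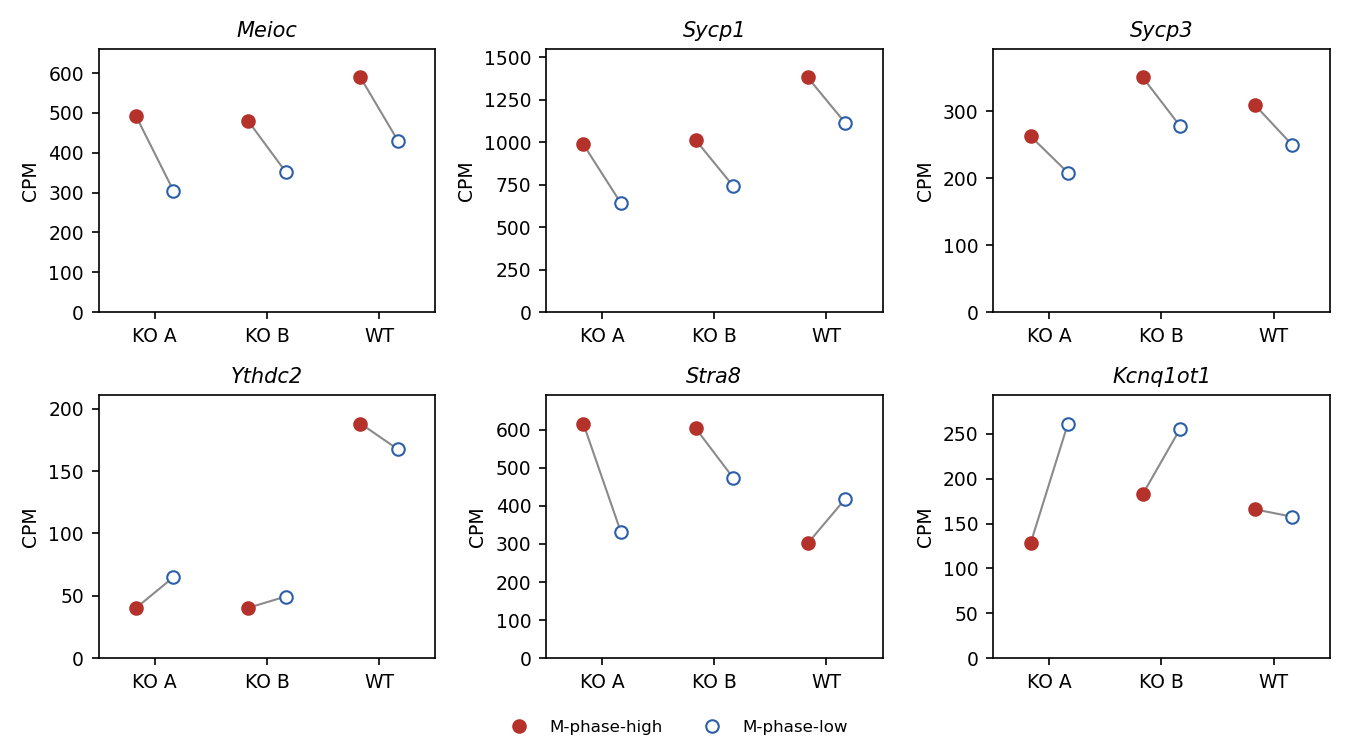
CPM (y axis) of Meioc, Sycp1, Sycp3, Ythdc2, Stra8 and Kcnq1ot1 in M-phase-high (filled red, left of each pair) and M-phase-low cells (open blue, right) of KO A, KO B and WT. Meioc, Sycp1 and Sycp3 are higher in the high cells of every library, whereas Stra8 is higher in the high cells of KO A and KO B (617 and 605 CPM) and lower in those of WT (302 CPM).

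In the remaining lists the counts stand against 7.43% of all genes tested that were higher and 8.74% that were lower. Of 11 p53 targets 3 were lower, led by Ccng1 at -0.48, and 0 higher. Of 10 genes of the integrated stress response 2 were lower, Mthfd2 and Shmt2, both enzymes of mitochondrial folate metabolism, where Mthfd2 had 88.4, 94.5 and 96.0 CPM in the high cells of KO A, KO B and WT, against 153, 142 and 149 CPM in the low cells (log2 difference -0.67, limma adjusted p = 3.56e-07). Of 9 immediate early genes 2 were lower, Jun at -0.94 and Jund at -0.38. Tubulins held 1 higher call of 8, Tubb4b at 0.36, and 2 lower, Tubg1 at -0.32 and Tuba1b at -0.89, where Tuba1b has near-identical copies and is uncertain. The CCT chaperonin, which folds tubulin and actin, held 2 higher of 7 and 0 lower. Proteasome subunits held 2 higher and 3 lower of 36, glycolysis enzymes 0 higher and 2 lower of 9, and piRNA pathway genes 2 higher and 1 lower of 11. Genes of meiotic telomere attachment held 0 higher and 2 lower of 7, Cdk2 at -0.79 and Sun1 at -0.34. Nubp2, of cytosolic iron-sulfur cluster assembly, and Ddx54, an RNA helicase, belonged to no list but to the 12 named lower genes, with log2 differences of -1.21 and -1.09.

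Those markers of other testis and blood cells that were present were near 0 in both classes. Sertoli cell markers, 8 of 10 present in the table, summed to 11.1, 11.04 and 12.7 CPM in the high cells of KO A, KO B and WT, against 10.6, 14.6 and 9.30 CPM in the low cells, and Gata4 had 0 UMIs. Leydig, peritubular myoid and stromal markers, of which 1 of 6, 6 of 6 and 6 of 7 were present, had low sums. These were at most 6.55 CPM in any high class and 9.52 CPM in any low class, and Actg2, Col3a1, Dcn and Tcf21 had 0 UMIs. Endothelial, macrophage and red blood cell markers summed to at most 1.58 CPM in any high class and 1.55 CPM in any low class. Only 1 of 5, 2 of 7 and 2 of 5 of these were present, so the sums leave out most of their markers. Of all these lists 1 gene reached the mean of 5 CPM needed for the test and it did not pass.

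The share of cells past the limits differed across the authors' clusters. In the L_Z_SCs cluster of leptotene and zygotene spermatocytes, which held WT cells only, 6 of 427 cells reached 1.2% and 384 were at or below 0.7%. In the mixed Diff_L_Z_SGs1 cluster 97 of 592 KO A cells and 72 of 441 KO B cells reached 1.2%. In the Undiff_SGs cluster 6 of 66 KO A, 7 of 90 KO B and 10 of 45 WT cells did. These clusters enter no comparison here.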

How the data were processed

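Single-cell RNA-seq of 3 libraries of 4N-sorted germ cells was analysed. Cell Ranger 3.0.2 and Scanpy, with build mm10/GRCm38, are named per the submitters' processing notes, and their order and filters are not given in the sources used here. The authors deposited a matrix of natural log values, ln(1 + UMI count divided by a size factor), with cell tables. Per the file headers these tables hold the UMI count and gene count of each cell, the fraction of mitochondrial UMIs, the authors' size factors and cell cycle scores, the phase call, the cluster and the library. Each library is 1 sample of its genotype, and the KO and WT labels of the cell table set the groups.

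From the deposited values whole UMIs were recovered for 4528 cells and 14103 genes. Of the values above 0, 100% came out whole within 0.01, and together they held 99.94% of the deposited UMIs per cell. No cell barcode was shared between libraries. UMIs were summed per library and class, which gave 6 sums of 1283914 to 2939885 UMIs. CPM was taken over all genes other than the 20 that set the classes. Genes with a mean of at least 5 CPM were tested on log2(CPM + 1) with limma 3.58.1 (R 4.3.3, trend, empirical Bayes), with the library as a block since both classes come from the same library, and Benjamini-Hochberg adjustment over all of them. The residual degrees of freedom were 2, and 1 for the interaction of class and genotype. The empirical Bayes step of the class test added 33.17 prior degrees of freedom from all genes, so its p-values rest mostly on pooled variance. A fold change on this scale understates that of low genes, and ratios of means are of plain CPM. An SE is that of the limma coefficient.

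The named genes were the 12 with the largest positive and the 12 with the largest negative difference, among called genes of at least 20 CPM with the same sign in all 3 libraries and without Gm or Rik names. Added to these were up to 3 called members of each gene list, 9 genes of interest (Ythdc2, Meioc, Rbm46, Xrn1, Stra8, Gm4969, Kit, Sycp3 and Ccnb3) and the 5 smallest p of the interaction. Further list members and the Hist genes were named after their values were seen. The cells, lists and tests were chosen with earlier results of these data known.

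Alternatives were TMM scaling, means of size-factor-scaled counts, edgeR 4.0.16 and DESeq2 1.42.0 on the recovered counts, other pseudocounts, filters and class limits, each library left out, no block, and classes from the first or last 10 rule genes. Cells were also thinned to 5000 UMIs, limited to 8000 to 16000 UMIs, or cleared of doublets called with Scrublet in Scanpy 1.11.5 (Python 3.11.15), which marked 3 cells of the 2 classes and may have missed others. No class held a cell under 5000 UMIs. On simulated data of 9306 genes with 200 changed, limma recovered 66% of 1.5-fold and 91% of 2-fold changes and made 16 false calls among 173. The simulation used a single set dispersion for all genes and the same class effect in every library, so these rates may not carry over to the real calls.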

Additional observations from a re-analysis of the deposited data

Results flagged for a closer look

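The class difference of Stra8 itself differed between KO and WT, by 1.0884 on the log2 scale, from the limma test of the interaction of class and genotype (adjusted p = 6.46e-05). The order of the classes was opposite in WT, with more Stra8 RNA in the high cells of both KO libraries and less in the high cells of WT. For Kcnq1ot1 the same test gave −0.8271 (limma adjusted p = 0.0455). That call was lost in 14 of 18 alternatives, and the value was −0.2145 with a single limit of 0.95%, −0.4951 with equal-sized outer classes per library and −0.5145 after thinning. The Stra8 call was lost in 5 of the 18, with TMM scaling, edgeR, DESeq2, no filter on low genes or no library block. Kcnq1ot1 was lower in the high cells of KO A and KO B and lay close to its low-cell level in WT. Both values compare 2 KO libraries with 1 WT library, so genotype and library cannot be told apart. The p-values of this test rest mostly on variance pooled over all genes.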

How the results depend on the processing

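The numbers of higher and lower genes, 690 and 811, depended on the test, the depth and the class limits. They were 168 and 75 with DESeq2, 222 and 178 in cells thinned to 5000 UMIs, 380 and 3.3e+02 (rounded) in cells of 8000 to 16000 UMIs, and 385 and 285 with limits of 1.4% and 0.5%. Leaving out 1 library at a time gave 315 to 603 higher and 327 to 709 lower, with both lowest counts without KO B. The high and low cells are paired by their library, and without the replicate block 115 genes were higher and 80 lower. In every other setting both counts lay within 1.5 times of 690 and 811, among them G2M-called cells, the setting added after the data were seen. All 24 genes named for the largest differences kept their calls in every setting. Of the 90 named genes called in all, 38 lost the call with DESeq2, 46 without the block, 31 in each depth setting, 25 with the stricter limits and 27 without KO B.

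The 2 interaction calls were less stable. Their number was 0 with TMM scaling, edgeR, DESeq2, no filter or no block, where 443, 431, 2, 411 and 247 genes had an unadjusted p under 0.05. It was 1 with a pseudocount of 0.1, after thinning, with limits of 1.4% and 0.5% and with either set of 10 rule genes. It was 4 with a single limit at 0.95%, 5 with means over cells, a pseudocount of 5, at least 20 CPM or doublets left out, and 46 in cells of 8000 to 16000 UMIs. The cause was not tested. The interaction without a library was not run, since no residual degrees of freedom remain.

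The uncalled class difference of 7 genes changed sign, always without passing the test. Xrn1 was −0.0403 with limits of 1.4% and 0.5% and −0.0861 with the first 10 rule genes, and Stra8 −0.0607 without KO A and −0.0389 with the first 10. Gm4969 was −0.0714 without WT, −0.325 at 8000 to 16000 UMIs, and −0.0461 and −0.0241 with the first and last 10. Kit was 0.0387 at 8000 to 16000 UMIs, 0.0045 with 1 limit and 0.0695 with the last 10. Ccnb3 was −0.0239 without KO B, −0.0176 with 1 limit and −0.1295 with the first 10. Rassf3 was −0.0427 without KO B. Nsmce1 was −0.1511 without KO A, −0.0179 without KO B, −0.0268 after thinning and −0.0038 at 8000 to 16000 UMIs.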
